A study of Mus musculus with 4 samples.

Results

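The Rab GTPases were measured in LPS-stimulated mouse macrophages of 2 genotypes, with and without PP2ACα, an alpha-type catalytic subunit of the serine/threonine phosphatase PP2A. The cells without it also carried a Cre. Members were the genes whose single symbol in the platform's probe annotation is Rab with a number and at most a letter and a further digit, so effectors, exchange factors and other interacting proteins stayed out. The rule found 58 genes among 22180 named ones, with 66 array features; where a gene had several, the brightest on average stood for it. Of the 58, 50 reached the filter, a mean of 3.53 log2 units over the 4 arrays, which is the median of all features, and 8 lay below it: Rab3b, Rab15, Rab26, Rab30, Rab33a, Rab37, Rab39b and Rab40b. Rab42, with a mean of 3.54, was the member just inside the filter, and Rab33a, at 3.46, the member just outside it.

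All 4 arrays were made from macrophages grown from bone marrow over 6 days with L-cell supernatant, a source of macrophage growth factor, and then exposed to LPS at 100 ng/ml for 2 hours, so every value is from stimulated cells and none shows the LPS response itself. The 2 control arrays were from PP2ACαfl/fl cells, in which exon 1 of the alpha catalytic subunit gene is floxed and no Cre is named. The 2 knockout arrays were from PP2ACαfl/fl;lyM-Cre cells, which carry the same floxed alleles and a myeloid Cre; the labels do not spell lyM out, give no strain or age, and do not say whether the replicates were separate mice, so the p-values measure only the spread between these arrays. Fewer cells of a type and less RNA per cell cannot be told apart in such bulk samples. Ppp2ca, the targeted gene, read 8.25 and 7.59 (control) and 4.36 and 3.39 (knockout), and Lyz2, the lysozyme M gene, 12.21 and 11.92 (control) and 6.99 and 6.75 (knockout). Loss of PP2ACα, the Cre and the lower Lyz2 came together in the knockout arrays and cannot be told apart here. All 11 measured macrophage markers were above the filter on every array; besides Lyz2, Fcgr1 passed the test described below, at 0.94 (adjusted p = 0.016). Of 6 tested monocyte markers 3 were higher and 1 lower in knockout, and their mean level over 7 measured markers was 5.65 and 5.75 in control and 6.13 and 6.17 in knockout; of 10 markers of T, NK and B cells 3 reached the filter. Of 7 tested markers of neutrophils and their precursors 1 was lower, Mmp8 at -0.84, and of 3 tested erythroid and megakaryocytic markers 2 were lower, Vwf at -0.88 and Ppbp at -0.45; the mean level of the latter list was 4.72 and 4.67 in control and 4.55 and 4.48 in knockout. The part of such cells in the results on Rab genes was not tested.

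Rab proteins are small GTPases that give each membrane compartment its identity. Exchange factors load them with GTP, the active form recruits effectors that tether, move or fuse vesicles, and activating proteins return them to the GDP form, which GDI extracts from the membrane; prenyl groups on the C terminus hold them there. In macrophages they order the path of a phagosome from early endosome to lysosome, carry TLR4 to and from the cell surface and release cytokines.

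Upstream sequence is shown for the single member that passed the test, Rab39, for Rab29, whose positive difference was the largest among the tested members, and for Rab5a and Rab21, which hold a match to the E-box of the CLEAR element known from lysosomal genes. Each line gives the 250 bases before the start site in RefSeq's gene table of GRCm38.p6, 5′ to 3′ on the gene's strand, with motif matches in capitals. The windows lie at chr9:53706233-53706482, minus strand (Rab39), chr1:131867027-131867276, plus strand (Rab29), chr17:53478984-53479233, plus strand (Rab5a) and chr10:115315592-115315841, minus strand (Rab21).
Rab39: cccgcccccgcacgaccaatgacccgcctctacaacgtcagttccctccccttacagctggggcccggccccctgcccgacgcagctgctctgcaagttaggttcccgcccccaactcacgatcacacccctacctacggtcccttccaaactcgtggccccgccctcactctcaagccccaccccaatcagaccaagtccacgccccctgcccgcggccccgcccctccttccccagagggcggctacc
Rab29: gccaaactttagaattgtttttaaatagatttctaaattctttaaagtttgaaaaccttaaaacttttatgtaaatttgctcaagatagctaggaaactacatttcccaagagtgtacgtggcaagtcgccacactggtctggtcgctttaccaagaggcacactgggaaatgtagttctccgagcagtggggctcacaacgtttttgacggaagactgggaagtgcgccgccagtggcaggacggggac
Rab5a: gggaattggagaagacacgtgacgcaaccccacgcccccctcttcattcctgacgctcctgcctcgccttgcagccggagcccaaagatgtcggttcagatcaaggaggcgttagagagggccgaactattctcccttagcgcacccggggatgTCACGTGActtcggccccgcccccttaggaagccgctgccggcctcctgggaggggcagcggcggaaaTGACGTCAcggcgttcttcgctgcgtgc
Rab21: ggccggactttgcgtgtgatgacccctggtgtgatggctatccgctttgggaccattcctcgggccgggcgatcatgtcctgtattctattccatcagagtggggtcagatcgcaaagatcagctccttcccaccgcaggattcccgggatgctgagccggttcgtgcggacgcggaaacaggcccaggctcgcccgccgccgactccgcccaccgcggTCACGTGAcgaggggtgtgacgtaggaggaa
The motifs searched on both strands were the interferon-stimulated response element (GAAA, any 2 bases, GAAA), the STAT site TTCNNNGAA, the NF-kB site, the cyclic AMP response element TGACGTCA and the E-box TCACGTGA; the last 2 and the STAT site are their own reverse complements. None of these motifs was found in the windows of Rab39 and Rab29. In Rab5a the capitals mark the E-box, which starts 96 bases before the start site, and the cyclic AMP response element, 28 bases before it, with no overlap; in Rab21 they mark the E-box, 31 bases before. Over windows of 300 bases, from 250 before to 50 after the start site, the E-box was present in 3 of 47 members with a window, Rab5a, Rab21 and Rab24 (6.38%), against 1.12% of 27025 genes and 2.13% of 9847 tested genes. The interferon element was present in 1 of 47, Rab19, against 3.99% of all genes, where its 2 matches overlapped, and the STAT site in 5 of 47 (10.6%) against 9.55%. The NF-kB site was in 3 (6.38%) against 9.55% of all genes, and the cyclic AMP response element in 2 (4.26%) against 2.03%. Among tested genes the interferon element was in 3.78%, the STAT site in 8.03%, the NF-kB site in 12.1% and the cyclic AMP response element in 3.36%. A match describes the letters and not binding, and none of the members with an E-box passed the test: Rab5a differed by 0.13, Rab21 by 0.054 and Rab24 by 0.073 log2 units (knockout minus control).

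Few Rab genes passed the test between the genotypes. Of the 50 tested members 1, or 2.00%, passed an adjusted p of 0.05 (limma, Benjamini-Hochberg over 12542 tested genes), against 6.79% of all tested genes; Rab39 was higher in knockout and 0 members were lower, against 3.3% of all tested genes higher and 3.49% lower. At an unadjusted p under 0.05 there were 10 members (20%), against 24.7% of all tested genes. With a mean-variance trend in the limma model there were 15 (30%, against 27.5%), and with each array centred on its median 13 (26%, against 24.8%). The other limma settings that called a member, listed at the end, left the share of members below that of all tested genes. Group means were 1.5-fold or more apart, with no test, in 3 members, Rab4a, Rab29 and Rab39, against 5.24% of tested genes. Differences were positive in 25 members and negative in 25, with a median of 0.010 log2 units against 0.0076 over all tested genes, and a median size of 0.12 against 0.15. The 95% interval lay inside a 1.5-fold change either way for 40 of 50 members (80.0%), against 74.7% of all tested genes. Both knockout arrays lay on one side of both control arrays in 30 of 50 members (60.0%) against 55.3% of tested genes, with 16 members higher against 28.8% and 14 lower against 26.5%, so the share of members whose groups did not overlap was near the background.

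**Figure D1:**
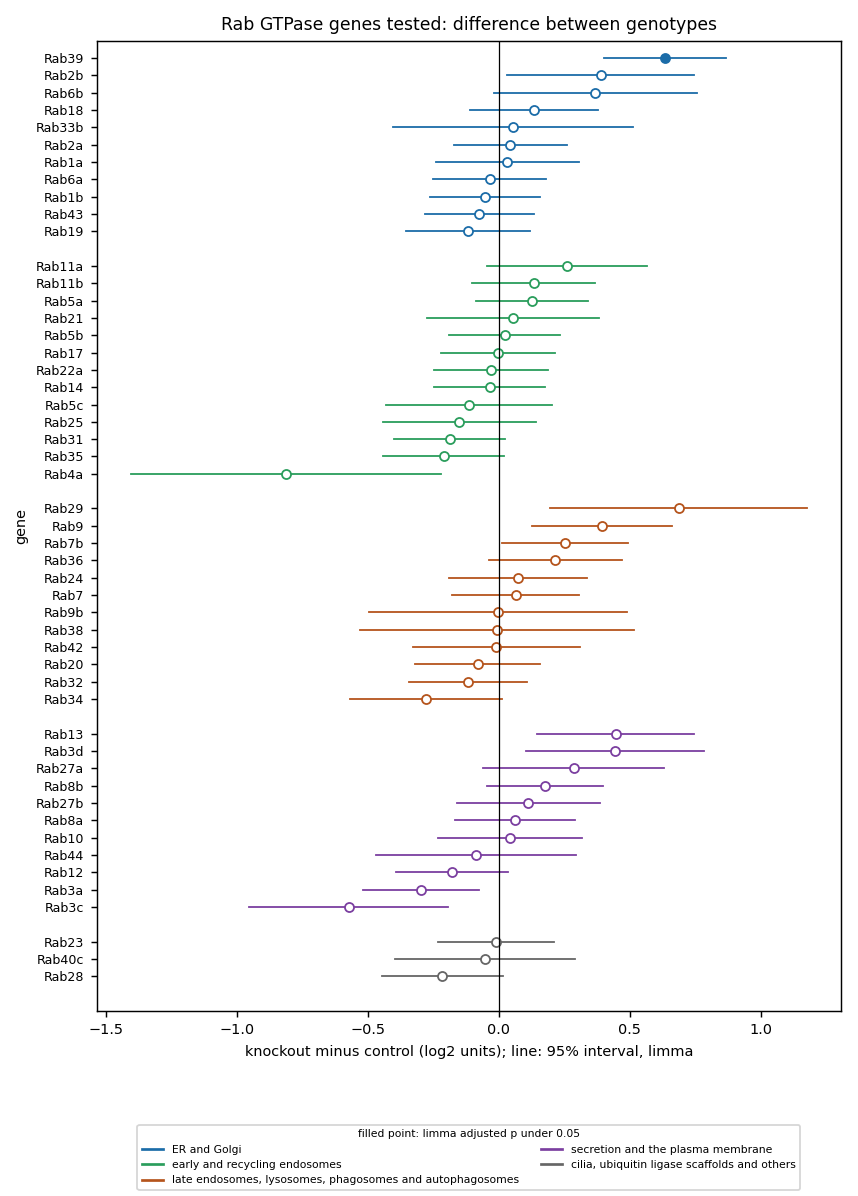
Difference between knockout and control in log2 units (horizontal axis) for the 50 tested Rab genes (vertical axis), coloured by the compartment group used here. Points are limma estimates and lines their 95% intervals, with 2 arrays per group. Rab39 has the single filled point, at 0.64, and the open points run from -0.81 for Rab4a to 0.69 for Rab29.

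Rab39 was counted here with the genes of the ER and Golgi, and not with those of late endosomes, lysosomes and phagosomes. Its protein, also called Rab39a, is known in macrophages on phagosomes and as a binding partner of caspase-1. Rab39 read 4.31 and 4.26 log2 units in control and 4.86 and 4.98 in knockout, with the groups apart by several times the gap within either. The means were 4.29 ± 0.041 and 4.92 ± 0.084 (SD, n = 2 each), a difference of 0.64 (SE 0.093, 95% interval 0.40 to 0.87, limma adjusted p = 0.024) or 1.55-fold, and 4.27% of tested genes had a larger difference in either direction. With any array left out the difference was 0.58 to 0.69 and the adjusted p between 0.086 and 0.16. Such a fit has a single array in a group, which is assumed to vary like the other group, and over all tested genes it called 96 to 174 in place of 852. The adjusted p was 0.058 with no filter. Of its neighbours in gene order, Cul5 differed by 0.039 (adjusted p = 0.86) and Slc35f2, below the filter and untested, by 0.098. The paralog Rab39b lay below the filter, at 2.93 and 2.91 (control) and 3.06 and 3.04 (knockout).

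Rab2b, which like Rab2a acts between the Golgi and the ER and at late endosomes, read 7.63 and 7.24 log2 units in control and 7.82 and 7.82 in knockout. Its knockout arrays lay close together and above both control arrays, which were further apart, and the difference of 0.39 (SE 0.14) did not pass (limma adjusted p = 0.17); it was 0.20 to 0.58 with an array left out. Rab6b, the less widely expressed copy of the Golgi gene Rab6a, read 5.85 and 6.29 (control) and 6.42 and 6.46 (knockout) and differed by 0.37 (SE 0.16, adjusted p = 0.22), also without overlap. It was 0.15 to 0.59 with an array left out, and a dimmer second feature of Rab6b differed by 0.011. The copies used most widely for traffic through the Golgi had smaller differences: 0.033 for Rab1a, -0.052 for Rab1b, 0.045 for Rab2a and -0.034 for Rab6a, with 95% intervals between -0.26 and 0.31. Rab18, of the ER and lipid droplets, differed by 0.14, Rab33b, which binds the autophagy protein Atg16l1, by 0.055, Rab43 by -0.073 and Rab19 by -0.12. Whether copies of a pair differ from each other in their change was not tested.

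Early and recycling endosomes had the widest negative difference of any tested member. Rab4a, which sends receptors from early endosomes straight back to the surface, read 4.71 and 4.04 log2 units in control and 3.72 and 3.41 in knockout. Both knockout arrays were below both control arrays, but the control arrays were themselves over 1.5-fold apart and the knockout values lay around the filter level. The difference of -0.81 (SE 0.24, 95% interval -1.40 to -0.22) did not pass (limma adjusted p = 0.11), and it was -0.48 to -1.15 with an array left out. Of the genes next to Rab4a in gene order, Rhou differed by -0.70 (limma adjusted p = 0.12) and Ccsap by -0.31 (adjusted p = 0.20). Rab4b was not a member, since its features carry several symbols; the brighter, shared with Mia, differed by 0.066.

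The Rab5 genes, which organise fusion at early endosomes and phagosomes, were close between genotypes. Rab5a read 9.61 and 9.56 log2 units in control and 9.73 and 9.70 in knockout, with no overlap and a difference of 0.13 (SE 0.086, 95% interval -0.088 to 0.34, limma adjusted p = 0.42). Rab5c read 8.96 and 8.67 (control) and 8.76 and 8.64 (knockout), where the knockout values overlapped those of control, and differed by -0.11 (95% interval -0.43 to 0.20). Rab5b differed by 0.023. Rab14, of early endosomes and young phagosomes, read 7.73 and 7.77 (control) and 7.73 and 7.71 (knockout) and differed by -0.034 (95% interval -0.25 to 0.18), and Rab22a, of the same compartment, by -0.029. Each of these intervals lies inside a 1.5-fold change.

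None of the 13 tested genes of early and recycling endosomes passed, and 1 had an unadjusted p under 0.05 (7.69%, against 24.7% of all tested genes). Rab11a, of the slow recycling endosome that supplies TLR4 to phagosomes, read 6.70 and 6.95 log2 units in control and 7.17 and 7.01 in knockout. The knockout arrays were higher by a narrow margin, and the difference of 0.26 (SE 0.12) did not pass (limma adjusted p = 0.26); it was 0.14 to 0.38 with an array left out. Rab11b differed by 0.13, and a dimmer feature of it, also above the filter, by -0.45 (adjusted p = 0.40 over features). Rab31, which links the Golgi to endosomes, read 10.46 and 10.50 (control) and 10.28 and 10.30 (knockout), with tight groups that did not overlap and a difference of -0.19 (adjusted p = 0.25). Rab35, of fast recycling and phagocytic cups, read 8.01 and 8.03 (control) and 7.75 and 7.87 (knockout) and differed by -0.21 (adjusted p = 0.24). Rab21, of integrin uptake, differed by 0.054, and Rab17 and Rab25, known from epithelial cells, by -0.0026 and -0.15.

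**Figure D2:**
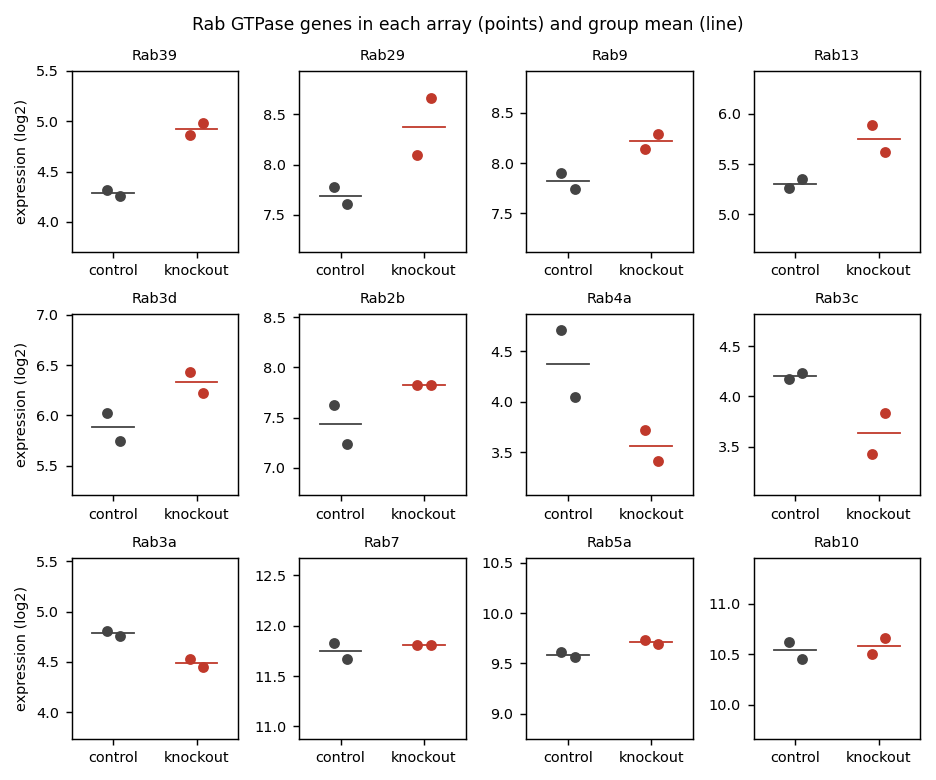
Expression in log2 units (vertical axes, each spanning the same range of 1.8 log2 units) of 12 Rab genes in each of 2 control and 2 knockout arrays; points are arrays and lines group means. The groups do not overlap for Rab39, Rab29, Rab9, Rab13, Rab3d, Rab2b, Rab4a, Rab3c, Rab3a and Rab5a, while those of Rab7 and Rab10 do.

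Among the genes counted under late endosomes, lysosomes and phagosomes, the largest positive differences were those of Rab29, Rab9, Rab7b and Rab36. None of these passed, and Rab39, which passed, was counted with the ER and Golgi. Rab29, known for recruiting the kinase Lrrk2 to the Golgi and stressed lysosomes, read 7.78 and 7.60 log2 units in control and 8.10 and 8.66 in knockout. Both knockout arrays were higher, but they lay further from each other than the control arrays did, and the difference of 0.69 (SE 0.20, 95% interval 0.20 to 1.18) missed the threshold (limma adjusted p = 0.10); it passed with a mean-variance trend in the model (0.037), and the difference was 0.41 to 0.97 with an array left out. Lrrk2 itself read 5.69 and 5.92 (control) and 6.22 and 6.17 (knockout), a difference of 0.39 (adjusted p = 0.10). The neighbours Slc41a1 and Nucks1 differed by 0.35 (adjusted p = 0.077) and -0.12 (adjusted p = 0.49). Rab9, which returns mannose 6-phosphate receptors from late endosomes to the Golgi, read 7.90 and 7.74 log2 units in control and 8.14 and 8.29 in knockout, a difference of 0.39 (SE 0.11, adjusted p = 0.094, and 0.032 with the trend). Its arrays were evenly spread in either group, and the groups were apart.

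Rab7, the GTPase that drives fusion with lysosomes, read 11.82 and 11.66 log2 units in control and 11.81 and 11.81 in knockout. The knockout values fell within the control range, and the difference was 0.065 (SE 0.096, 95% interval -0.18 to 0.31, limma adjusted p = 0.73). Rab7b, known for moving TLR4 toward degradation, read 10.51 and 10.35 (control) and 10.69 and 10.68 (knockout) and differed by 0.25 (95% interval 0.012 to 0.49, adjusted p = 0.18); both knockout arrays were above both controls, and the call was not reached. Rab20, a phagosome gene known for induction by interferon gamma, read 8.37 and 8.24 (control) and 8.18 and 8.27 (knockout). Its groups overlapped, with a difference of -0.081 (95% interval -0.32 to 0.16), and its second feature differed by 0.12. Rab32, which delivers antimicrobial cargo to bacterial vacuoles, read 8.13 and 8.08 (control) and 8.04 and 7.94 (knockout) and differed by -0.12 (adjusted p = 0.48), and its relative Rab38 read 3.62 and 4.23 in control, with both knockout arrays between them at a mean of 3.92. Rab34, of lysosome positioning, read 5.47 and 5.26 (control) and 5.001 and 5.17 (knockout) and differed by -0.28 (adjusted p = 0.22). The autophagy gene Rab24 differed by 0.073, Rab36 by 0.22, Rab9b by -0.0028 and Rab42 by -0.0092.

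None of the 11 tested genes of secretion and the plasma membrane passed, against 6.79% of all tested genes. A limma unadjusted p under 0.05 was found for 4 (36.4%), against 24.7% of all tested genes. The Rab3 subfamily controls regulated exocytosis. Rab3d, the form known from secretory granules outside neurons, read 6.03 and 5.74 log2 units in control and 6.44 and 6.22 in knockout, a difference of 0.44 (SE 0.14, limma adjusted p = 0.12). Rab3a and Rab3c, the forms of synaptic vesicles, were lower in both knockout arrays. Rab3a read 4.81 and 4.76 (control) and 4.53 and 4.45 (knockout), a difference of -0.29 (SE 0.089, adjusted p = 0.12). Rab3c read 4.17 and 4.23 (control) and 3.42 and 3.84 (knockout), a difference of -0.57 (SE 0.15, adjusted p = 0.089), with a knockout mean near the filter level. The other features of Rab3d and Rab3c, both below the filter, had the opposite signs, -0.27 and 0.11, and Rab3b lay below the filter. With its features averaged Rab3d differed by 0.089 (adjusted p = 0.74), and Rab3c then lay below the filter. The difference between its members was not tested.

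Rab13, of junctions and surface delivery, read 5.26 and 5.35 log2 units in control and 5.89 and 5.62 in knockout, a difference of 0.45 (SE 0.12, limma adjusted p = 0.092), with the groups apart. Rab27a, which docks lysosome-related granules for release, read 5.59 and 5.22 (control) and 5.70 and 5.69 (knockout) and differed by 0.29 (adjusted p = 0.27); its knockout arrays agreed closely and its control arrays did not, and the difference was 0.10 to 0.47 with an array left out. Rab10, known for carrying newly made TLR4 to the surface, read 10.62 and 10.45 log2 units in control and 10.50 and 10.66 in knockout, with overlapping groups and a difference of 0.043 (95% interval -0.23 to 0.32). Rab8a, which acts in TLR signalling from macropinosomes, read 10.05 and 10.14 (control) and 10.20 and 10.11 (knockout) and differed by 0.062 (95% interval -0.17 to 0.29), and Rab8b by 0.18. A dimmer feature of Rab8a read 6.29 and 4.89 in control and 4.70 and 4.86 in knockout, so 1 control array stood apart there. Rab12 read 9.27 and 9.26 (control) and 9.06 and 9.11 (knockout), tight groups that differed by -0.18 (adjusted p = 0.27), Rab27b differed by 0.11 and Rab44 by -0.087.

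The 3 tested genes of cilia and ubiquitin ligase scaffolds all had negative differences. Rab28, of ciliary traffic, read 7.55 and 7.46 log2 units in control and 7.33 and 7.24 in knockout and differed by -0.22 (SE 0.092, limma adjusted p = 0.23), without overlap. Rab40c, of a ubiquitin ligase, differed by -0.051 and Rab23, a brake on hedgehog signalling, by -0.011, with overlapping groups. Below the filter, where differences are understated and no test was made, the 8 members ran from -0.066 for Rab37 to 0.46 for Rab33a.

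**Figure D3:**
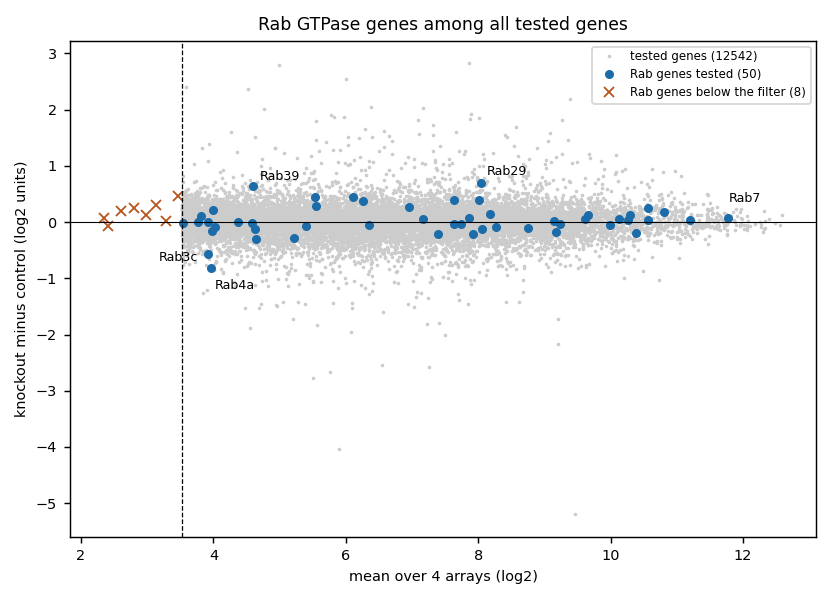
Mean over the 4 arrays (horizontal axis, log2) against the difference, knockout minus control (vertical axis, log2 units), with a grey dot for each of 12542 tested genes, blue points for the 50 tested Rab genes and crosses for the 8 below the filter (dashed line, 3.53). The Rab genes lie between -0.81 and 0.69 over the whole range of means.

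The partners of Rab proteins were counted from lists of textbook members. Of 134 tested partners, 1 passed, the effector Rilpl1, against 6.79% of all tested genes. A limma unadjusted p under 0.05 was found for 17 (12.7%), against 24.7% of all tested genes. Rilpl1, which binds Rab8 and Rab10 proteins after their phosphorylation by Lrrk2, read 7.36 and 7.11 log2 units in control and 6.61 and 6.64 in knockout, a difference of -0.61 (SE 0.11, limma adjusted p = 0.040). Both knockout arrays lay below both control arrays. With an array left out, 0 partners passed by limma, with 7 to 18 at an unadjusted p under 0.05. Of 47 tested effectors none rose and 1 fell, 2.13% called against 6.79% of all tested genes, with a median difference of -0.016; Fyco1, which carries late endosomes along microtubules, differed by 0.38 (adjusted p = 0.088) and Rab11fip2, which binds Rab11, by 0.28 (adjusted p = 0.12).

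Among 45 tested exchange factors limma called 0, against 6.79% of all tested genes, and 3 (6.67%, against 24.7%) had an unadjusted p under 0.05, with a median difference of 0.0020. The ones nearest the threshold were DENN domain genes: Dennd4a, an exchange factor for Rab10, at 0.41 (adjusted p = 0.051) and Dennd1c, for Rab35, at 0.40 (adjusted p = 0.062). Rab3ip, the exchange factor for Rab8, has 6 protein-coding genes between it and Lyz2 in gene order and differed by -0.24 (adjusted p = 0.25); the member nearest to Lyz2 was Rab21, with 19 genes between, and nearest to Ppp2ca Rab1a, with 212. Among 35 tested activating proteins limma called 0, with 5 (14.3%) at an unadjusted p under 0.05 and a median of 0.022; Tbc1d25 differed by 0.28 and Sgsm2 by -0.44. Of the 7 tested genes of prenylation, escort and GDI limma called 0 and 0 had an unadjusted p under 0.05: Gdi2 differed by 0.20, Chm, the escort protein, by 0.083 and Rabggta and Rabggtb of the prenyl transferase by -0.079 and -0.29.

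Other families of small GTPases stand beside these counts, with no test of the difference between families. Of 17 genes of the Ras, Rap, Ral and Rheb list 1 rose, Rrad at 0.62 (adjusted p = 0.034), and 1 fell, Rras2 at -0.49 (adjusted p = 0.035), or 11.8% called against 6.79% of all tested genes. Neither passed with any of the 4 arrays left out. Among 15 Arf and Arl genes limma called 0, with 3 (20%) below an unadjusted 0.05, where all tested genes had 24.7%, and among 5 Rab-like genes 0 and 0.

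**Figure D4:**
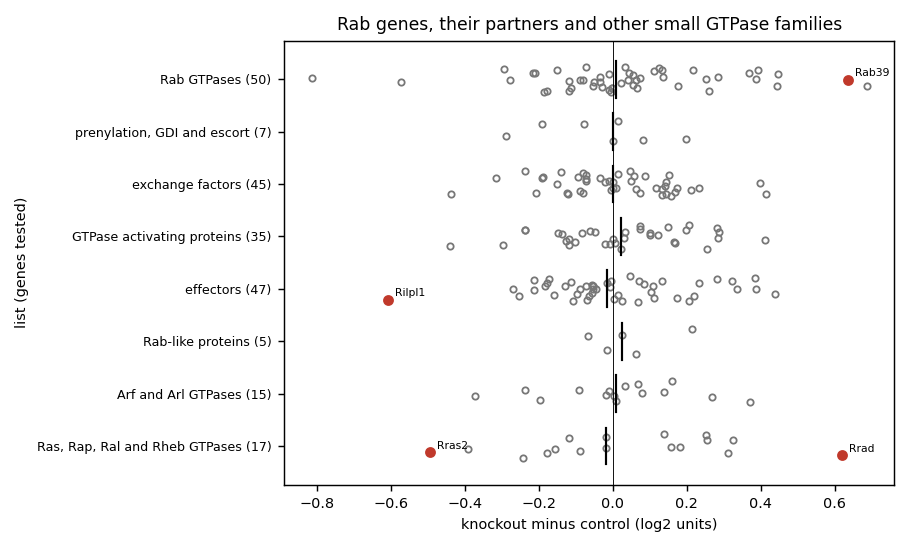
Difference, knockout minus control, in log2 units (horizontal axis) for each tested gene of the Rab family, of 4 lists of Rab partners and of 3 lists of other small GTPases (vertical axis, with the number tested); black bars are medians and filled red points are genes with a limma adjusted p under 0.05, of which 1 is a Rab gene (Rab39), 1 a partner (Rilpl1) and 2 lie in the Ras list (Rrad and Rras2).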

How the data were processed

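The authors deposited log2 values of 41345 features on 4 arrays, made by RMA with background adjustment and normalization per the series' design text; RMA and oligo, with no version, are named in the submitters' processing notes, and the genome build is not given in the sources used here. Genes came from the platform's probe annotation (23521 features with a single symbol, 1814 with several, 16010 unnamed); all 58 members matched RefSeq symbols. Array medians were 3.50 to 3.57 and arrays correlated across features at 0.986 to 0.990. Of 22180 genes, 12542 with a mean of at least 3.53 were tested with limma 3.58.1 in R 4.3.3 (lmFit, eBayes, no block; 2 residual and 3.51 prior degrees of freedom), two-sided, with Benjamini-Hochberg adjustment over all tested genes and a threshold of 0.05; scripts were tested on simulated data. The number of arrays limits the precision. In the simulated data, with 2 against 2 arrays, 7.55% of 1.5-fold changes and 74.4% of 2-fold changes passed the test. There 200 of 12542 genes were changed, while 852 were called in the real data. Benjamini-Hochberg adjustment is laxer where more genes change, so these shares do not give the power of the reported test. Levels of different genes are not compared, and close paralogs may share probe signal. Members with values in every array were those called, the 8 largest differences in each direction and 13 genes of TLR4 and phagosome traffic; partner and family genes named beyond the called ones, and neighbours, were picked with their values in view. The members and lists were chosen with earlier results of these data known; 1 gene list is not reported here.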

Additional observations from a re-analysis of the deposited data

How the results depend on the processing

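With 2 arrays per group, the count of called Rab genes moved with the settings. It was 0 with no filter, 0 with no pooling of variance across genes, 0 with each array left out in turn, against 1 as reported, and 3 with a mean-variance trend (Rab39, Rab29 and Rab9); at 1.5-fold on group means, with no test, it was 3 (Rab39, Rab29 and Rab4a). These counts of 0 by limma went with 11 (19%), 5 (10.0%) and 5 to 9 (10.0% to 18.0%) members at an unadjusted p under 0.05, against 15.4%, 18.3% and 15.6% to 24.3% of all tested genes. Leaving out an array leaves 1 in a group, assumed to vary like the other group, so fewer calls come with the design. With the replicate number as a block it was 0, with 10 at an unadjusted p under 0.05 (20%, against 22.6%). The adjusted p of Rab39 in that limma fit was 0.066. Deviations of same-numbered arrays from their group means correlated at -0.036. With 2 arrays per group this cannot tell whether same-numbered arrays share more than a number, and the labels do not say. The trend's 3 of 50 members were a smaller share than its 1584 of 12542 tested genes. The count of called Rab genes stayed at 1, Rab39, with robust hyperparameters, the stricter filter, a gene's features averaged, each array centred on its median, or quantile normalization. Rab39 has 1 feature, so averaging left its values as they were. The stricter filter lay 1 log2 unit higher, and Rab39 reached it only through its knockout arrays. Neither of these 2 settings is an independent check of that call. Called partners, 1 as reported, were 0 with no filter, no pooling, the replicate block or any array left out (14, 18, 13 and 7 to 18 at an unadjusted p under 0.05), 4 with the stricter filter and 5 with the trend. Called genes of the other families, 2 as reported, were 0 with no filter, no pooling, the replicate block or any array left out (9, 6, 6 and 3 to 10 at an unadjusted p under 0.05), and 3 with the stricter filter, median centring or the trend. Over all tested genes 852 were called, 333 with no filter, 1354 with the stricter filter, 1584 with the trend, 312 with the replicate block, 96 to 174 with an array left out and 0 with no pooling, where 2295 had an unadjusted p under 0.05. Partners at an unadjusted p under 0.05 made up 12.7% as reported, 9.52% with no filter, 13.4% with no pooling and 9.7% with the block. In that order the other families had 21.6%, 20.5%, 16.2% and 16.2%, and all tested genes 24.7%, 15.4%, 18.3% and 22.6%. Of 27 named members 21 kept their sign throughout, but many were picked for large differences. Groups that do not overlap, those of Rab39 included, cannot reverse with an array left out, so this count is a weak check. With a gene's features averaged, Rab20 became 0.021 and Rab8a -0.37, both from a dimmer second feature, and Rab6b 0.19 and Rab3d 0.089. With an array left out, Rab10 ran from -0.042 to 0.13, Rab38 from -0.31 to 0.30, Rab5c from -0.26 to 0.031 and Rab7 from -0.015 to 0.14. Where no cause is given, the cause was not tested. Dim members, such as Rab4a and Rab3c in knockout, lie near background, where differences are understated. Rab39 was dim too, at a control mean of 4.29 with the filter at 3.53.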
